A study of Mus musculus with 6 samples.

Results

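The genes described here encode amino acid transporters of the solute carrier families SLC1, SLC3, SLC6, SLC7, SLC36, SLC38 and SLC43. They were chosen by name alone: protein-coding genes whose symbol begins with Slc, 1 of these 7 family numbers, the letter a and a digit, 58 of the 25805 genes listed and of the 17221 protein-coding ones. RNA was sequenced from kidneys of mice, 3 labelled CXCR2 KO and treated with ischaemia-reperfusion injury (IRI), set against 3 labelled WT with the same injury. In IRI the blood flow of the kidney is stopped and restored, which damages mainly the proximal tubule, and Cxcr2 encodes a chemokine receptor best known from neutrophils. All 6 libraries thus come from injured kidneys, and uninjured ones were not analysed here. The labels give no strain, sex, age, time after injury or number of animals, nor which part of Cxcr2 was deleted and in which cells.

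Amino acids filtered by the kidney are almost all taken back in the proximal tubule. Carriers in the brush border bring them into the cell with sodium, with protons or in exchange for other amino acids, and carriers in the basolateral membrane pass them on to the blood. Several of these carriers are heteromers, in which an SLC3 heavy chain brings an SLC7 light chain, the actual transporter, to the membrane. The same families also feed cell growth, supply cystine for glutathione and move amino acids out of lysosomes.

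The deposited values are normalized counts, that is, reads per gene divided by a size factor of the library, and the libraries labelled knockout held 17372645 to 17937195 reads, against 15518083 to 20356601 in the WT libraries. Cxcr2 did not separate the labels, with 98.0, 36.8 and 56.6 normalized counts in knockout-labelled libraries 1 to 3 and 15.9, 88.8 and 56.9 in WT libraries 1 to 3 (log2 fold change 0.43, limma adjusted p = 0.841), so the groups are called here by their labels. Knockout-labelled library 1 stood apart from the other 5 on the first principal component (48.3% of the variance over 12841 genes). Its 10 fat cell markers summed to far more than in any other library, with 62269.9, 3330.5 and 400.3 normalized counts in the knockout-labelled libraries and 3677, 2141 and 1065 in the WT libraries. It had the lowest Havcr1, the gene of the tubular injury marker KIM-1, with 1321, 22632 and 54545 normalized counts in the knockout-labelled libraries and 21441, 29373 and 30696 in the WT libraries. Havcr1 is 1 of 10 injured tubule markers listed, of which 3 had higher and 7 lower means in the knockout-labelled group. Their median log2 deviation from the WT mean set library 1 less apart. It was -0.37, -0.32 and -0.10 in the knockout-labelled libraries and -0.29, 0.13 and 0.15 in the WT libraries. The 10 markers summed to 125751, 375432 and 686161 in the knockout-labelled and 386288, 502946 and 508825 in the WT libraries. This sum was lowest in knockout-labelled library 1 and highest in knockout-labelled library 3. Results that rest on knockout-labelled library 1, called library 1 from here on, are given with and without it, and WT libraries are always named as such. Without it the knockout-labelled group holds only libraries 2 and 3. Knockout-labelled library 3 in turn stood apart on the second principal component (27.3% of the variance), at -57.3, where the other 5 lay from -12.8 to 33.6. The 8 collecting duct markers summed to 25360, 15917 and 3596 in the knockout-labelled and 12826, 11120 and 17308 in the WT libraries. The 8 thick limb and distal tubule markers summed to 102141, 46312 and 23070 in the knockout-labelled and 41745, 75852 and 81160 in the WT libraries. Each sum was lowest in knockout-labelled library 3. All 16 proximal tubule markers were detected in every library, summing to 335447 to 369581 normalized counts in the knockout-labelled and 304482 to 434007 in the WT libraries. The 5 markers of the proximal tubule's S1 segment summed to 116412, 63657 and 34212 in the knockout-labelled and 48109, 28578 and 40920 in the WT libraries. The 7 S3 segment markers summed to 13662, 14989 and 22546 in the knockout-labelled and 15564, 11497 and 17486 in the WT libraries. The part of these nephron segments in the members' values was not tested. Nothing in the labels ties each library to its own animal, so p-values here rest on a spread between samples that could be technical only.

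Of the 58 members, 55 had a mean normalized count of at least 1 and were tested. Slc36a3, Slc38a5 and Slc6a21 had at most 4 reads in any library and were not. No member passed limma's adjusted threshold of 0.05, which 1 of 21721 genes tested did (0.0046%), and edgeR's quasi-likelihood test called none of the 44 members it kept (0.00628% of all genes). At an unadjusted limma p under 0.05, 6 members were higher and 3 lower in the knockout-labelled kidneys. Over all genes tested, 3.94% were higher and 6.14% lower by that rule, 10.1% together. The groups did not overlap for 7 members that were higher and 1 that was lower, where 8.27% and 9.43% of all genes did not. The DESeq2 Wald test on the recovered reads called 3 of the 45 members with an adjusted p, all higher, Slc7a7, Slc6a8 and Slc7a12, where it called 0.647% of all genes higher and 1.95% in either direction. The mean log2 value was higher in the knockout-labelled group for 35 of the 55 and lower for 20 (49.9% higher over all genes), and the members' median log2 fold change was 0.18, beside -0.0010 over all genes. That median was 0.079 without knockout-labelled library 1, whose own median deviation from the WT mean was 0.49 over the 55 members, with 0.0100 in library 2 and -0.095 in library 3.

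**Figure D1:**
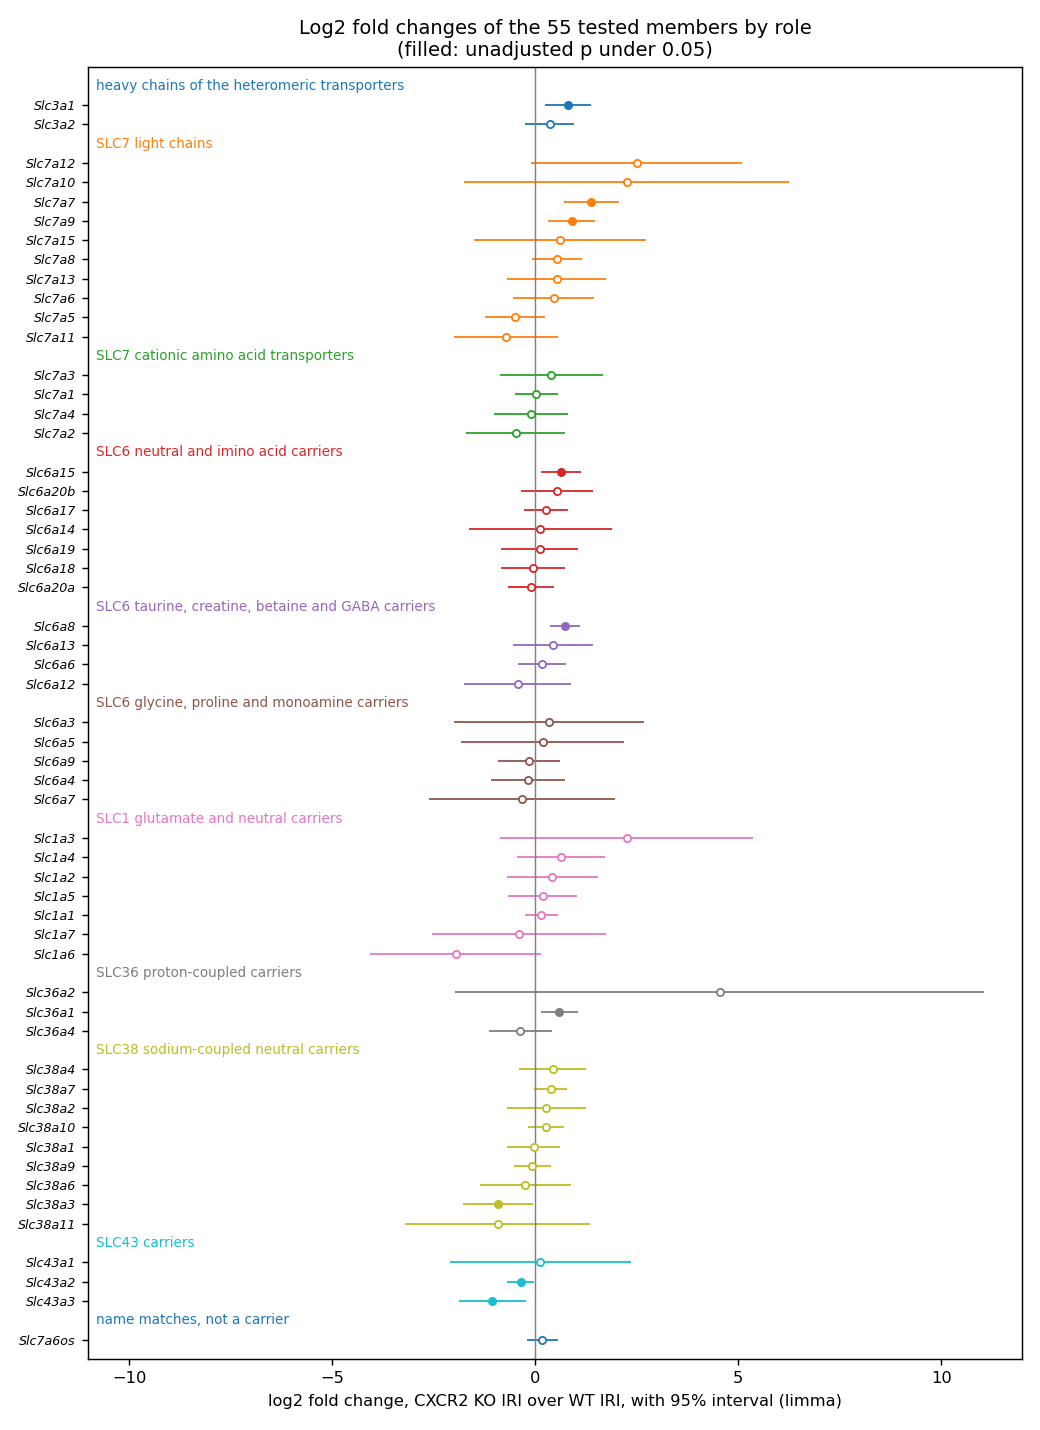
Log2 fold change of each of the 55 tested members, CXCR2 KO IRI over WT IRI, with limma's 95% interval, grouped by role (points filled where the unadjusted limma p is under 0.05). Slc7a7, at 1.39, and Slc6a8, at 0.74, have intervals above 0, as do Slc3a1, Slc7a9, Slc36a1 and Slc6a15. The interval of Slc36a2 runs from -1.97 to 11.06.

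Levels between genes were compared per kilobase (kb) of gene length. Slc6a18, a brush-border carrier of glycine and other neutral amino acids, was the highest, with a mean of 4756 normalized counts per kb in the knockout-labelled libraries and 4737 in the WT libraries. Both heavy chains and the creatine carrier came next, Slc3a1 at 1789 per kb in the knockout-labelled and 1038 in the WT libraries, Slc3a2 at 1598 in the knockout-labelled and 1182 in the WT libraries, and Slc6a8 at 1611 in the knockout-labelled and 958 in the WT libraries. The order went on with Slc6a6, Slc6a19, Slc7a7, Slc7a9, Slc7a8 and Slc1a5. Slc6a18 made up 13.0, 27.2 and 37.5% of the members' summed level per kb in knockout-labelled libraries 1 to 3, against 25.1, 33.1 and 37.7% in WT libraries 1 to 3. At the other end, 9 members had a mean normalized count from 1 to 10 and 3 had less than 1.

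**Figure D2:**
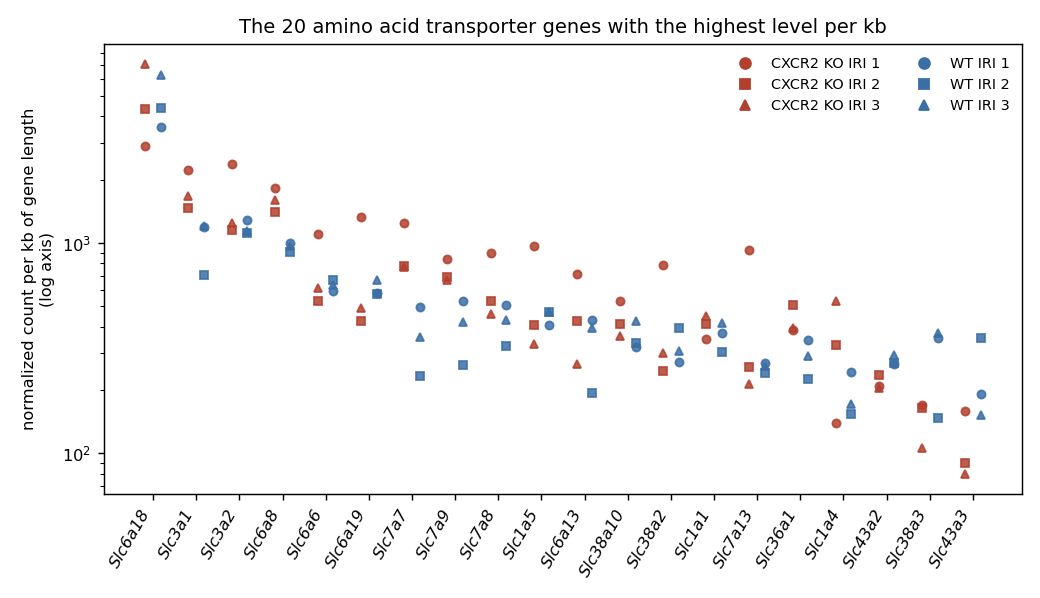
Normalized counts per kb of gene length (log axis) in each library for the 20 members with the highest mean level, with CXCR2 KO IRI to the left of WT IRI for each gene and circle, square and triangle for libraries 1, 2 and 3. Slc6a18 lies above all other members. The 3 CXCR2 KO IRI points lie above the WT IRI points for Slc7a7, Slc6a8, Slc3a1, Slc7a9 and Slc36a1, and below them for Slc43a2.

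The heavy chain Slc3a1 (rBAT) and its light chain Slc7a9 form the brush-border exchanger for cystine and the basic amino acids, whose loss causes cystinuria. Slc3a1 (chromosome 17, 85028347 to 85064243, mm10) had 5105, 3401 and 3873 normalized counts in the knockout-labelled libraries and 2763, 1633 and 2791 in the WT libraries. Slc7a9 (chromosome 7, 35448796 to 35466036) had 2254, 1845 and 1787 in the knockout-labelled libraries and 1422, 702 and 1127 in the WT libraries. For both genes all 3 knockout-labelled libraries lay above all 3 WT libraries. By limma the log2 fold change was 0.81 with an SE of 0.25 for Slc3a1 (adjusted p = 0.394) and 0.91 with an SE of 0.25 for Slc7a9 (adjusted p = 0.39), so neither passed the threshold. The ratio of light to heavy chain per kb was 0.381, 0.468 and 0.398 in the knockout-labelled libraries and 0.444, 0.371 and 0.348 in the WT libraries, which overlapped (exact two-sided permutation p = 0.5, n = 3 each, where 3 against 3 cannot go below 0.1). Slc3a1 shares 601 of its 2271 exon bases with Prepl on the other strand, and the sources do not say whether reads were counted by strand. Prepl itself had 1785, 1452 and 1652 normalized counts in the knockout-labelled libraries and 1094, 864 and 1233 in the WT libraries.

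The basolateral exchanger that passes basic amino acids to the blood pairs Slc7a7 (y+LAT1, mutated in lysinuric protein intolerance) with the heavy chain Slc3a2 (4F2hc, CD98). Slc7a7 (chromosome 14, 54369442 to 54417780, minus strand) had 4110.0, 2591 and 2550.2 normalized counts in the knockout-labelled libraries and 1648, 777 and 1182 in the WT libraries. Its lowest knockout-labelled value exceeded its highest WT value by more than the whole range of the WT libraries. The means were 3084 ± 889 in the knockout-labelled and 1203 ± 436 in the WT libraries (SD, n = 3 each), a log2 fold change of 1.39 (SE 0.30, 95% interval 0.71 to 2.07), which is 2.62-fold. The limma adjusted p was 0.371, past no threshold, whereas DESeq2 called it (adjusted p = 0.00855, and 0.0145 without knockout-labelled library 1, where DESeq2 called 4.64% of all genes, 1.62% as higher). Leaving out 1 library at a time gave log2 fold changes of 1.11 to 1.65. Slc7a7 is also known from macrophages, whose 7 markers, none at 0 in all libraries, summed to 7843, 3387 and 4531 normalized counts in the knockout-labelled and 4294, 7954 and 5436 in the WT libraries, with overlap, and their part in its values was not tested. Oxa1l overlaps 232 of the 3315 exon bases of Slc7a7 on the other strand and had 1444, 1597 and 1466 normalized counts in the knockout-labelled and 1381, 1204 and 1329 in the WT libraries.

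Slc3a2, which also serves Slc7a5, Slc7a6, Slc7a8 and Slc7a11, had 8423, 4088 and 4407 normalized counts in the knockout-labelled libraries and 4548, 3935 and 4032 in the WT libraries. Library 1 was far above the rest and the other libraries of both groups overlapped (log2 fold change 0.36, and 0.03 without that library). The ratio of Slc7a7 to Slc3a2 per kb was 0.519, 0.675 and 0.616 in the knockout-labelled libraries and 0.386, 0.210 and 0.312 in the WT libraries. This ratio did not overlap between the groups, and its exact two-sided permutation p was 0.1, the smallest that 3 against 3 allows (Benjamini-Hochberg adjusted 0.3 over 6 light-to-heavy ratios). For Slc7a5 the ratio to Slc3a2 per kb was 0.0370, 0.0410 and 0.0360 in the knockout-labelled libraries and 0.0469, 0.0938 and 0.0733 in the WT libraries, with the knockout-labelled libraries lower and the same exact p of 0.1. The ratios of Slc7a8, Slc7a6 and Slc7a11 to Slc3a2 overlapped between the groups.

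Promoters of these heteromer genes are shown because Slc7a7, Slc7a9 and Slc3a1 did not overlap between the groups, beside Slc7a11 as a known target of the stress factor ATF4. They run from 250 bases before to 50 bases after a transcript start, 5′ to 3′ on the gene's strand, and were taken from RefSeq (GRCm38.p6). Slc3a1 is at chr17:85028097-85028396 (plus strand), Slc7a9 at chr7:35448842-35449141 (plus), Slc7a7 at chr14:54417895-54418194 (minus, the most upstream of 5 listed starts) and Slc7a11 at chr3:50443564-50443863 (minus). Capitals mark matches on either strand to the palindromic motif of the tubular factor HNF1, with up to 2 mismatches, or to TGATGNAA, the core bound by ATF4 with C/EBP factors.
Slc3a1: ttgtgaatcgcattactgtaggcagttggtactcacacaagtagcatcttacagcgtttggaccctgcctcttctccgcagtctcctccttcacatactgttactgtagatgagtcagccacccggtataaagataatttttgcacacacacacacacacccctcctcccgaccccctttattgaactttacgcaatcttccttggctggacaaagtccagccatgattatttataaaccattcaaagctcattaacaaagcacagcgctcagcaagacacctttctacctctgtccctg
Slc7a9: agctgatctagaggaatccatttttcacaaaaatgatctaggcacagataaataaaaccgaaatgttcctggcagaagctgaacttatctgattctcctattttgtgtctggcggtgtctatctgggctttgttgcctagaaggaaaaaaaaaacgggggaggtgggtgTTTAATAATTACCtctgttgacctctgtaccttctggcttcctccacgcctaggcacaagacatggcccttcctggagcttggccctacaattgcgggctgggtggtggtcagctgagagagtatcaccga
Slc7a7: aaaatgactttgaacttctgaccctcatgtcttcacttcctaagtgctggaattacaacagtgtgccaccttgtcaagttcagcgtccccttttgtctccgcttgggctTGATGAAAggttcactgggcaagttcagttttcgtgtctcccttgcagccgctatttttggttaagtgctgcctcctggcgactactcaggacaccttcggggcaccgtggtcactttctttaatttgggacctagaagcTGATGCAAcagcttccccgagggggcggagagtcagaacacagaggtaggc
Slc7a11: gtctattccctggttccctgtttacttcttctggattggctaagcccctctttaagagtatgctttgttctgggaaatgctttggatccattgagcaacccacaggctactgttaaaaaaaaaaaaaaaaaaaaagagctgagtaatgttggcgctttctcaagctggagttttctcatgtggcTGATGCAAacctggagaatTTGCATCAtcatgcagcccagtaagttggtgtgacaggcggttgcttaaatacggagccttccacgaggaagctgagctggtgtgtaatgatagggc
Among 8 proximal tubule transporter genes fixed for this search, 7 had a RefSeq promoter and 1, Slc7a9, held a match to the HNF1 motif, from -81 to -69 with position 0 at the transcript start. That motif, which reads alike on both strands, matched in 1.36% of all 32851 promoters. Of the 6 ATF4-target transporter genes 4 had a promoter and 1, Slc7a11, matched TGATGNAA, at -66 to -59 on its own strand and at -47 to -40 on the other. Slc7a7 matched at -141 to -134 and at -1 to 6, although it was not among those 6. Of its 5 listed promoters only the one shown and the next downstream matched, the latter at the same bases as -1 to 6. This core was found in 3.97% of all promoters and in 5 of the members' 63, which belong to 4 of 42 genes, Slc7a7, Slc7a11, Slc1a4 and Slc6a21. The HNF1 motif was found in 4 of those 63, which belong to 3 genes, Slc7a9, Slc6a13 and Slc38a4, and no member matched both motifs. The 2 listed promoters of Slc7a9 overlap and matched at the same bases. A match is a description of letters, not of binding.

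Beside these, 8 of the 10 tested SLC7 light chains had a higher mean log2 value in the knockout-labelled group (median log2 fold change 0.58), 2 of them at an unadjusted limma p under 0.05, Slc7a7 and Slc7a9. Without library 1, 4 of the 8 then tested had a higher mean (median log2 fold change 0.090). Slc7a8 (LAT2), a basolateral carrier of neutral amino acids, had 4479, 2657 and 2299 normalized counts in the knockout-labelled libraries and 2539, 1626 and 2158 in the WT libraries, which overlapped (log2 fold change 0.54, and 0.25 without library 1, limma adjusted p = 0.549). Slc7a13 (AGT1), the late proximal tubule carrier of aspartate, glutamate and cystine that also pairs with Slc3a1, had 1977, 548 and 456 in the knockout-labelled and 574, 515 and 555 in the WT libraries. Only library 1 was high, and without it the log2 fold change was -0.13, against 0.53 with it. Slc7a12, a related mouse kidney carrier, had 212, 7.75 and 17.5 normalized counts in the knockout-labelled libraries and 9.19, 4.63 and 2.28 in the WT libraries. DESeq2 called Slc7a12 (adjusted p = 0.0202), limma did not (adjusted p = 0.507), and knockout-labelled library 2 lay within the WT range. Without library 1 DESeq2 gave Slc7a12 no adjusted p.

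The light chains of growth and stress, Slc7a5 and Slc7a11, had lower means in the knockout-labelled group. Slc7a5 (LAT1), which imports essential amino acids into growing cells, had 327, 176 and 167 normalized counts in the knockout-labelled and 224, 388 and 311 in the WT libraries (log2 fold change -0.49, limma adjusted p = 0.621). Slc7a11 (xCT), which exchanges glutamate for cystine and is induced by oxidative stress, had 51.2, 33.9 and 59.7 in the knockout-labelled and 32.6, 161 and 87.6 in the WT libraries (log2 fold change -0.71, limma adjusted p = 0.688). For both genes the groups overlapped. Slc7a6 (y+LAT2) was high in library 1 alone, with 609, 239 and 172 in the knockout-labelled and 206, 254 and 187 in the WT libraries.

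Among the 4 cationic amino acid transporters of SLC7, 2 had higher and 2 lower means (median log2 fold change -0.032). Slc7a1 (CAT1), the general importer of arginine and lysine, had 714, 502 and 403 normalized counts in the knockout-labelled and 507, 567 and 469 in the WT libraries, which overlapped, as did Slc7a2, Slc7a3 and Slc7a4. Slc7a4 had 74.6, 193 and 169 in the knockout-labelled and 139, 113 and 190.0 in the WT libraries, and Slc7a2, an arginine importer of liver and activated macrophages, had 180.4, 94.9 and 41.2 in the knockout-labelled and 159.6, 155 and 78.5 in the WT libraries.

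The brush-border SLC6 carriers of neutral and imino acids, Slc6a19, Slc6a18, Slc6a20a and Slc6a20b, all overlapped between the groups. Slc6a19 (B0AT1), the main neutral amino acid carrier, mutated in Hartnup disorder, had 6672, 2130.0 and 2458 normalized counts in the knockout-labelled libraries and 2886, 2877 and 3336 in the WT libraries. Library 1 was the highest of all 6 and libraries 2 and 3 were below all WT libraries, so that the log2 fold change was 0.11 with library 1 and -0.40 without it. Its neighbour on chromosome 13, Slc6a18, had another order of libraries, with 12731, 19118 and 31190.3 in the knockout-labelled and 15769, 19266 and 27744 in the WT libraries. Library 1 was the lowest and library 3 the highest of the 6, and the log2 fold change was -0.05 (0.969 as limma's adjusted p).

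The imino acid carrier Slc6a20b had 2126, 1643 and 904 normalized counts in the knockout-labelled and 1428, 655 and 1092 in the WT libraries, and its copy Slc6a20a had 233, 213 and 228 in the knockout-labelled and 201, 209 and 329 in the WT libraries. None of the differences passed the threshold (limma adjusted p = 0.648 and 0.917), and the log2 fold change of Slc6a20b was 0.54 with and 0.27 without library 1. The copies share a stretch of 276 bases at 95.7% identity, and Sacm1l covers 1800 of the 8538 exon bases of Slc6a20b on the other strand, so their split is uncertain. Slc6a15 (B0AT2), a carrier of branched-chain amino acids and proline best known from neurons, had 513, 487 and 729.7 in the knockout-labelled and 429, 316 and 362 in the WT libraries. These values did not overlap (log2 fold change 0.63, SE 0.22, limma adjusted p = 0.429). Slc6a17, a neutral carrier of synaptic vesicles, and Slc6a14, a broad carrier of neutral and basic amino acids, overlapped, with Slc6a14 at 0.968 to 11.3 normalized counts in the knockout-labelled and 2.51 to 5.55 in the WT libraries.

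Slc6a8, which imports creatine, had little spread within either group. There were 9542, 7317 and 8328 normalized counts in the knockout-labelled libraries and 5218, 4703 and 5047 in the WT libraries, and all 3 knockout-labelled libraries lay above all 3 WT libraries. The means were 8396 ± 1114 in the knockout-labelled and 4989 ± 262 in the WT libraries (SD, n = 3 each), a log2 fold change of 0.74 (SE 0.16, 95% interval 0.37 to 1.12, 1.67-fold). Its limma adjusted p was 0.373, and DESeq2 called it (adjusted p = 0.0135, and 0.00329 without library 1). The log2 fold change was 0.65 to 0.84 on leaving out each library in turn.

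The other osmolyte carriers of SLC6 overlapped between the groups. The taurine carrier Slc6a6 had 9291, 4466 and 5176 normalized counts in the knockout-labelled and 5028, 5622 and 5328 in the WT libraries, high in library 1 alone (log2 fold change 0.17, and -0.15 without it). Slc6a13 (GAT2), which takes up GABA and taurine, had 2068, 1242 and 771 in the knockout-labelled and 1245, 561 and 1139.9 in the WT libraries (log2 fold change 0.44, and 0.08 without library 1, limma adjusted p = 0.742). The betaine carrier Slc6a12 (BGT1), known from the inner medulla, was low throughout, with 10.02, 6.78 and 4.12 in the knockout-labelled and 9.19, 14.8 and 5.69 in the WT libraries. Of the 5 glycine, proline and monoamine carriers none reached an unadjusted limma p under 0.05, and the more abundant were Slc6a9, a glycine carrier, at 371 ± 133 in the knockout-labelled and 407 ± 125 in the WT libraries, and Slc6a4, the serotonin carrier, at 124 ± 72.6 in the knockout-labelled and 129 ± 26.4 in the WT libraries (SD, n = 3 each). The dopamine carrier Slc6a3, the neuronal glycine carrier Slc6a5 and the brain proline carrier Slc6a7 had at most 9 reads in any library, and Slc7a15 of the SLC7 family had at most 5. For these 4 genes the groups overlapped.

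None of the 7 SLC1 members reached an unadjusted limma p under 0.05. Slc1a1 (EAAC1), the brush-border glutamate carrier, had 2155, 2552 and 2762 normalized counts in the knockout-labelled and 2307, 1874 and 2562 in the WT libraries (log2 fold change 0.15). Slc1a5 (ASCT2), an exchanger of glutamine and other neutral amino acids, had 4053, 1701 and 1379 in the knockout-labelled and 1692, 1968 and 1954 in the WT libraries, high in library 1 alone (log2 fold change 0.18, and -0.29 without it). Slc1a4 (ASCT1), a serine and alanine exchanger, showed the reverse, with 548, 1283 and 2072 in the knockout-labelled and 955, 606 and 672 in the WT libraries. Its library 1 was the lowest of the 6, and without that library DESeq2 called it higher (log2 fold change 1.17, adjusted p = 0.00493), whereas limma with all libraries gave 0.63 (adjusted p = 0.664). Slc1a2, a glutamate carrier of glia, had 39.0, 76.5 and 152 in the knockout-labelled and 65.2, 44.4 and 64.8 in the WT libraries, which overlapped. The retinal and cerebellar glutamate carriers Slc1a7 and Slc1a6 had at most 7 reads in any library, and Slc1a6 had none in the knockout-labelled libraries, where 3 reads each would be 3.34, 2.90 and 3.09 normalized counts.

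Slc36a1, Slc38a7, Slc38a9 and Slc36a4 are named together here as carriers known from lysosomes, which was not 1 of the role groups. The first 2 were higher without overlap, as were 8.27% of all genes tested. Slc36a1 (PAT1), which exports small amino acids from lysosomes, had 2179.7, 2860.0 and 2218 normalized counts in the knockout-labelled and 1947, 1270.3 and 1629 in the WT libraries (log2 fold change 0.59, SE 0.20, limma adjusted p = 0.424). Slc38a7, a lysosomal glutamine exporter, had 476, 519 and 539 in the knockout-labelled and 440.5, 356 and 385 in the WT libraries (log2 fold change 0.38, limma adjusted p = 0.509). Slc38a9, the lysosomal arginine sensor upstream of mTORC1, and Slc36a4 overlapped, with Slc38a9 at 274, 357 and 289 in the knockout-labelled and 342, 327 and 292 in the WT libraries.

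The 3 members that were lower at an unadjusted limma p under 0.05 were Slc38a3, Slc43a2 and Slc43a3. Slc38a3 (SNAT3), the basolateral glutamine importer that feeds ammonia production, had 896, 866 and 559.9 normalized counts in the knockout-labelled libraries and 1864, 780.0 and 1970.4 in the WT libraries. WT library 2 lay among the knockout-labelled libraries and the other WT libraries lay above them (log2 fold change -0.91, SE 0.37, limma adjusted p = 0.475). Slc43a2 (LAT4), a basolateral exit route for branched-chain amino acids and phenylalanine, had 2102, 2372 and 2045 in the knockout-labelled and 2666, 2703 and 2942 in the WT libraries. This was the member that was lower without overlap, by limma with a log2 fold change of -0.35 and an SE of 0.15 (adjusted p = 0.475). The antisense gene Gm45606 covers 922 of its 10042 exon bases.

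Slc43a3, a carrier of purine nucleobases in spite of its family, had 706, 404 and 357 normalized counts in the knockout-labelled and 851, 1574 and 681 in the WT libraries. Library 1 lay just above the lowest WT library (log2 fold change -1.05, SE 0.36, limma adjusted p = 0.429). Without library 1 DESeq2 called Slc43a3 lower (log2 fold change -1.45, adjusted p = 0.00375), where it called 3.02% of all genes lower. Of the endothelial markers 5 of 6, and of the fibroblast markers 6 of 6, had lower means in the knockout-labelled group. The endothelial markers summed to 6138, 4059 and 2329 normalized counts in the knockout-labelled and 7644, 8376 and 4506 in the WT libraries, and the fibroblast markers to 5667, 10099 and 3621 in the knockout-labelled and 20889, 27299.6 and 12574 in the WT libraries, with no marker at 0 in all libraries. Their part in the values of Slc43a3 was not tested.

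The most abundant remaining SLC38 members overlapped. Slc38a2 (SNAT2), the starvation-induced importer of neutral amino acids, had 6979, 2185 and 2655 normalized counts in the knockout-labelled and 2399, 3489.9 and 2724 in the WT libraries, high in library 1 alone (log2 fold change 0.28, and -0.24 without it). Slc38a10 had 3398, 2631 and 2332 in the knockout-labelled and 2054, 2150.2 and 2746 in the WT libraries. Slc38a1, Slc38a4, Slc38a6 and Slc38a11 overlapped too, with log2 fold changes from -0.93 to 0.43. Slc7a6os, whose name fits the pattern though it encodes no carrier, had 574 ± 57.7 in the knockout-labelled and 507 ± 39.5 in the WT libraries (SD, n = 3 each).

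**Figure D3:**
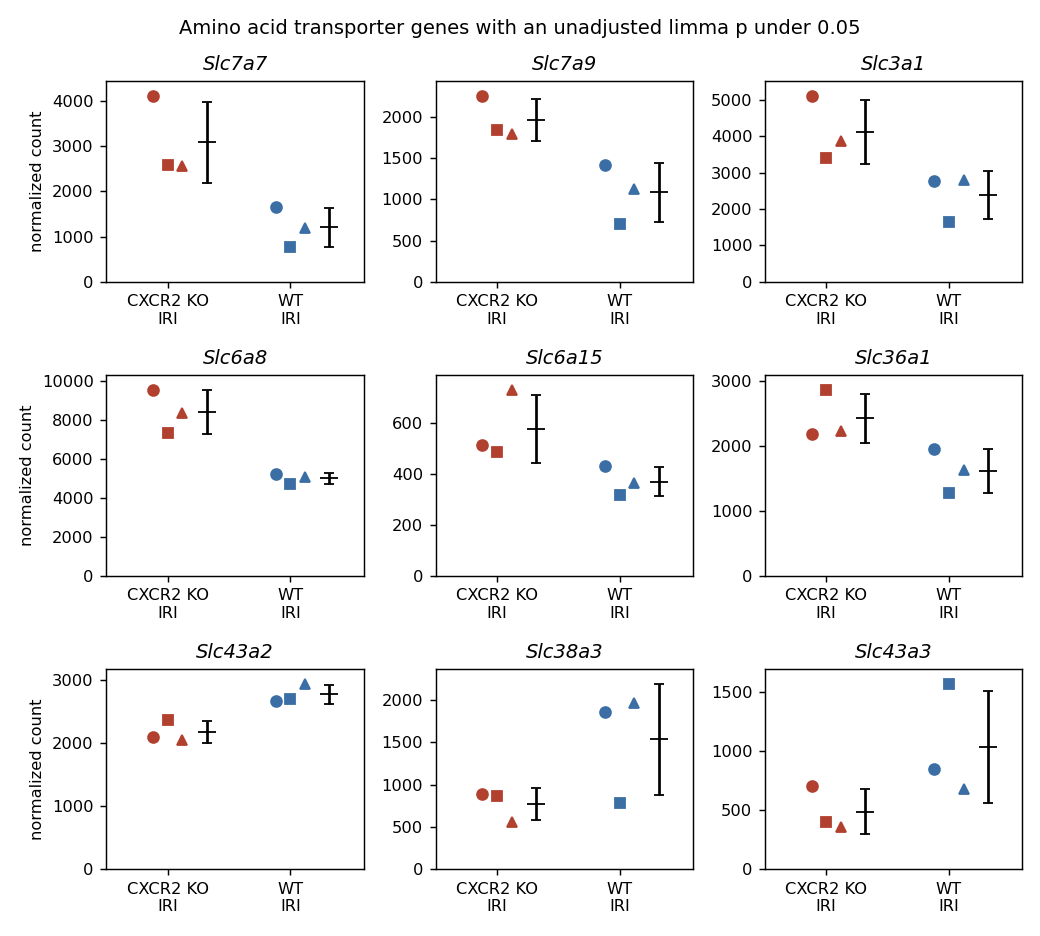
Normalized counts of the 9 members with an unadjusted limma p under 0.05, CXCR2 KO IRI left and WT IRI right, with circle, square and triangle for libraries 1, 2 and 3 and black bars for the mean ± SD. Of the 9, Slc38a3 and Slc43a3 overlap between the groups, and no member passed the adjusted threshold.

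Several of these carriers are known from the proximal tubule, so members were set beside its 16 markers. In RNA of kidney tissue, fewer cells of a type and less RNA per cell cannot be told apart. The median log2 deviation of the markers from the WT mean was 1.12, 0.50 and -0.06 in knockout-labelled libraries 1 to 3 and 0.35, -0.45 and 0.11 in WT libraries 1 to 3, and 11 of the 16 had higher means in the knockout-labelled group (median log2 fold change 0.49, none past limma's threshold). Without library 1 it was 9 of the 16, with a median log2 fold change of 0.029. Relative to the median deviation of each library, a description chosen after the values were seen, Slc7a7 was at 0.72, 0.68 and 1.21 on the log2 scale in the knockout-labelled libraries and 0.17, -0.11 and -0.07 in the WT libraries, which did not overlap. Slc3a1 was at 0.02, 0.05 and 0.80 in the knockout-labelled and -0.10, -0.06 and 0.15 in the WT libraries, and Slc7a9 at -0.0025, 0.33 and 0.84 in the knockout-labelled and 0.10, -0.11 and 0.0027 in the WT libraries. Slc6a8 was at -0.18, 0.06 and 0.80 in the knockout-labelled and -0.28, 0.37 and -0.10 in the WT libraries. These 3 overlapped between the groups, and knockout-labelled library 3 was the highest for each. Slc38a3 stood at -1.78, -1.21 and -1.28 in the knockout-labelled and 0.04, -0.41 and 0.36 in the WT libraries, with no overlap on this scale. Slc43a3, Slc7a5 and Slc6a12 were lower without overlap on it too. Slc43a3 stood at -1.57, -1.76 and -1.38 in the knockout-labelled and -0.54, 1.15 and -0.62 in the WT libraries. The scale subtracts 1.12 and 0.50 from every gene in knockout-labelled libraries 1 and 2, which lowers them there. It also takes 0.35 from every gene in WT library 1 and adds 0.45 in WT library 2. In WT library 2, Slc38a3 thereby moved from -0.86 to -0.41. The part of tubule markers in these differences was not tested further.

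Knockout-labelled library 1 was the highest of the 6 libraries for 28 of the 55 members and the lowest for 7. The shares over all genes were not determined for these counts, so they are not read as a trait of the members. For 12 members that library was more than 2-fold above the highest of the other 5 (5.74% of all genes). Those named next were chosen after their values were seen. Slc36a2 (PAT2), a proton-coupled carrier of glycine and proline in tubules and a surface marker of brown and beige fat cells, had 2017, 108 and 1.03 normalized counts in the knockout-labelled libraries and 34.3, 0 and 0 in the WT libraries. Slc7a10 (Asc-1), a surface marker of white fat cells, had 107, 0 and 0 in the knockout-labelled and 0 in all WT libraries. Slc43a1 (LAT3), a carrier of neutral amino acids, had 166, 47.4 and 8.23 in the knockout-labelled and 44.3, 47.2 and 25.0 in the WT libraries. The glutamate carrier Slc1a3 (GLAST) had 795, 107 and 18.5 in the knockout-labelled and 63.5, 16.7 and 12.5 in the WT libraries.

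The median log2 deviation of the 10 fat cell markers from the WT mean was 7.57, 3.27 and -2.23 in the knockout-labelled libraries and 2.39, -1.36 and -1.15 in the WT libraries, so this median, like Slc36a2 and Slc1a3, was highest in library 1 and next highest in knockout-labelled library 2, whereas the summed fat markers were next highest in WT library 1. Ucp1, the uncoupling protein of brown fat, had 7234, 48.4 and 5.15 normalized counts in the knockout-labelled and 10.03, 0.925 and 3.41 in the WT libraries, and Adipoq, the fat hormone adiponectin, had 2174, 96.8 and 0 in the knockout-labelled and 97.8, 0 and 0 in the WT libraries. The 8 neutrophil markers, of which none was at 0 in all libraries, summed to 3670.0, 423 and 946 normalized counts in the knockout-labelled and 354, 1238 and 1022 in the WT libraries. The 7 erythrocyte markers found, none at 0 in all libraries, summed to 13549.5, 1050.5 and 769.8 in the knockout-labelled and 2973, 761 and 1609.8 in the WT libraries, again highest in library 1. The part of fat, neutrophil or erythrocyte RNA in the members' values was not tested.

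**Figure D4:**
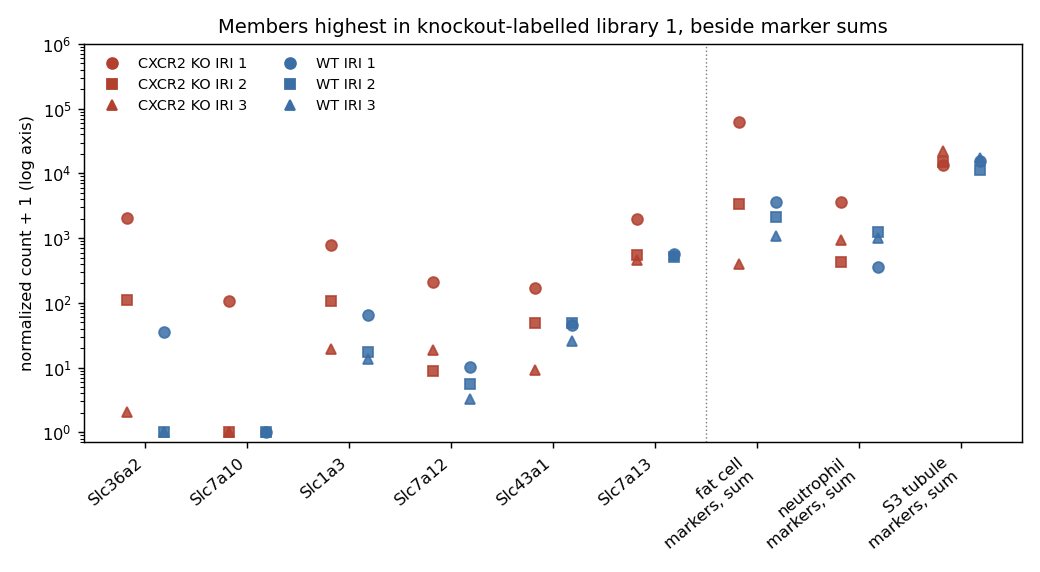
Normalized count + 1 (log axis) of 6 members that were highest in knockout-labelled library 1, beside the summed markers of fat cells, neutrophils and the S3 segment of the proximal tubule, with CXCR2 KO IRI left of WT IRI and circle, square and triangle for libraries 1, 2 and 3. The red circle of library 1 stands above the other 5 points for the members, the fat markers and the neutrophil markers.

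Genes that work with these carriers were followed through 5 lists. For their counts, 3.94% of all genes tested were higher and 6.14% lower at an unadjusted limma p under 0.05. Of the 17 tested partners, brush-border peptidases and other carriers, 14 had higher means in the knockout-labelled group (median log2 fold change 0.39), 2 at an unadjusted limma p under 0.05, and none past the threshold, while DESeq2 called 1 higher. Without library 1 it was 12 of the 17, with a median of 0.26. Mfsd12, a lysosomal cysteine importer, had 468, 514 and 555 normalized counts in the knockout-labelled and 413, 309 and 391 in the WT libraries (limma adjusted p = 0.465), and the lysosomal peptide carrier Slc15a4 had 479, 329 and 322 in the knockout-labelled and 239.9, 268 and 313 in the WT libraries (adjusted p = 0.55).

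Of 32 genes of renal amino acid metabolism 23 had higher means in the knockout-labelled group (median log2 fold change 0.20), 3 of them at an unadjusted limma p under 0.05. Without library 1 it was 17 of the 32, with a median of 0.032. The 3 genes were Fah, the last enzyme of tyrosine breakdown, at 5943 ± 924 in the knockout-labelled and 3979.6 ± 1021 in the WT libraries, Dao, which oxidizes D-amino acids, at 4526 ± 328 in the knockout-labelled and 2975 ± 957 in the WT libraries, and Asl of the arginine pathway at 3049 ± 1175 in the knockout-labelled and 1894 ± 337 in the WT libraries (SD, n = 3 each, limma adjusted p = 0.45, 0.452 and 0.475). Their log2 fold changes of 0.60, 0.66 and 0.64 were 0.48, 0.61 and 0.34 without library 1. Among the 21 genes of the ATF4 amino acid response 12 had higher means, and none reached an unadjusted limma p under 0.05, the smallest being those of Sesn2, Pycr1 and Cebpb. Sesn2, the leucine sensor sestrin, had 1345, 1009.8 and 1159.8 normalized counts in the knockout-labelled and 728, 787 and 1207 in the WT libraries, and Pycr1, the last enzyme of proline synthesis, had 7.80, 50.3 and 8.23 in the knockout-labelled and 46.8, 48.1 and 21.6 in the WT libraries. Cebpb, a partner of ATF4 on DNA, had 4191, 1483 and 2366 in the knockout-labelled and 924, 1113 and 2582 in the WT libraries, and all 3 genes overlapped between the groups.

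The 24 genes of amino acid sensing by mTORC1 had 1 higher, Flcn, and 2 lower, the Ragulator subunits Lamtor4 and Lamtor2, at an unadjusted limma p under 0.05. Over all genes tested the shares were 3.94% higher and 6.14% lower. Flcn, folliculin, had 1840.0, 782 and 782 normalized counts in the knockout-labelled and 734, 509.8 and 568 in the WT libraries (log2 fold change 0.80, and 0.39 without library 1). Lamtor4 had 748, 943 and 938 in the knockout-labelled and 1656, 1303 and 1060.3 in the WT libraries (log2 fold change -0.60), and Lamtor2 had 776, 878 and 720.4 in the knockout-labelled and 1275, 1047 and 878 in the WT libraries (-0.42). None of the 3 overlapped between the groups, and for Lamtor2 the nearest knockout-labelled and WT libraries were less than 1 normalized count apart. In the whole list 3 genes were higher and 3 lower without overlap, beside 8.27% and 9.43% of all genes tested.

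Of the 7 genes of glutathione synthesis, Gclc, the catalytic subunit of its rate-limiting enzyme, had 9133, 7222 and 8978 normalized counts in the knockout-labelled and 5241, 6025 and 6035 in the WT libraries (log2 fold change 0.55, limma adjusted p = 0.391). Of the 7, only Gclc was at an unadjusted limma p under 0.05. Over all genes tested, 8.27% were higher and 9.43% lower without overlap. The groups did not overlap for Gclc, nor for 2 genes that were lower in the knockout-labelled group. These were Gss, glutathione synthetase, at 4567, 4573 and 4038 in the knockout-labelled and 4933, 4723 and 5238 in the WT libraries, and Ggct, which breaks down gamma-glutamyl peptides, at 256, 272 and 268 in the knockout-labelled and 312, 320.1 and 307 in the WT libraries. The median over the 7 was -0.013, and Cbs and Ggct were next by limma p (adjusted p = 0.644 and 0.68). No gene of these 5 lists passed limma's threshold.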

How the data were processed

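Gene expression was measured by RNA sequencing of kidney in 6 libraries, grouped by the genotype and treatment in the labels. The unit of the deposited files is a signal, a gene's read count scaled by the size factor of its library. This was read from the values, of which 100% were whole multiples of 1 step per library to within 0.001 reads, so that counts could be restored. The genome build was mm10, per the submitters' processing notes. Which aligner, counting program and strand setting were used is not stated in the labels. The main test was limma 3.58.1 (trend and robust options, R 4.3.3) on log2(normalized count + 1) for the 21721 genes with a mean of at least 1, with Benjamini-Hochberg adjustment over all of them, a threshold of 0.05 and knockout minus wild type as the direction. This scale understates the change of low genes. On the recovered reads, edgeR 4.0.16 (quasi-likelihood) and DESeq2 1.42.0 (Wald test) were alternatives. The scripts were tested on simulated data.

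The members and gene lists were chosen with earlier results of these data known. Individual values are given for 22 carriers taken for their role and for each member with an unadjusted p under 0.05, other members by role, and up to 3 genes per list by smallest p. Exon overlaps and near-identical stretches come from GENCODE vM21, promoters from RefSeq, where 42 of the 58 members had one. Replicate numbers did not pair the libraries, as same-numbered libraries' deviations from their group means had correlations of 0.067, -0.148 and 0.122 over 12841 genes. The values of 1 gene of the partner list are not reported here.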

Additional observations from a re-analysis of the deposited data

How the results depend on the processing

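No member was called under any limma or edgeR setting run, while DESeq2 called 3 with all libraries and 4 without knockout-labelled library 1, an alternative added after seeing the data (Slc6a8, Slc43a3, Slc1a4 and Slc7a7). Over all genes, 1 call became 4 with TMM scaling, 5 with a pseudocount of 5, 5 with no filter on low values, 316 with DESeq2, 699 with DESeq2 without library 1, and 1 to 6 on leaving out 1 library. The 3 lower members at an unadjusted p under 0.05 became 0 without knockout-labelled library 3, 1 without WT library 2 or 3, up to 4 without knockout-labelled library 1, and 6 with DESeq2 without that library. The members' median log2 fold change of 0.18 was 0.32 with edgeR, 0.33 with DESeq2, 0.27 with a minimum mean of 10, 0.037 with DESeq2 without library 1, and 0.079 to 0.35 on leaving out 1 library. It was 0.18 also with Slc7a10 and Slc1a6, which were at 0 throughout 1 group, set at 3 reads per library there. Slc1a6, then at -0.53, stayed below that median and Slc7a10, then at 3.62, above it, so this could not move it.

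Of 26 genes named for their values, 18 kept their sign in all planned settings and 8 reversed when 1 library was left out, 7 of them without knockout-labelled library 1. The ranges of log2 fold change over the left-out libraries were -0.13 to 0.93 for Slc7a13, -0.19 to 0.22 for Slc7a1, -0.40 to 0.42 for Slc6a19, -0.38 to 0.26 for Slc6a18, -0.22 to 0.13 for Slc6a20a, -0.15 to 0.38 for Slc6a6, -0.29 to 0.49 for Slc1a5 and -0.24 to 0.60 for Slc38a2. Slc6a18 was also 0.0072 with edgeR and 0.0060 with DESeq2. DESeq2 without library 1 gave -0.13 for Slc7a13, -0.19 for Slc7a1, -0.40 for Slc6a19, 0.27 for Slc6a18, -0.14 for Slc6a6, -0.28 for Slc1a5 and -0.25 for Slc38a2. Members outside the 26 reversed too, among them Slc43a1, at 0.13 with all libraries and -0.86 without knockout-labelled library 1. Slc1a2 was at 0.42 with all libraries and -0.07 without knockout-labelled library 3. The cause of these reversals was not tested.

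Replicate numbers did not pair the libraries. With the number as a replicate block, 16 genes and no member were called, and 10 members in place of 6 were higher at an unadjusted p under 0.05. With 3 libraries a group and a median SE of 0.38 on the log2 scale over the members tested, a member not called may still differ, and at few reads even a large factor is not resolved.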
